A study of Drosophila melanogaster with 3 samples.

Results

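The genes described are 6 members of the Jun N-terminal kinase (JNK) stress pathway of Drosophila melanogaster and its AP-1 transcription factor: egr, bsk, hep, puc, kay and Jra. They were taken by name from the Ensembl gene models, out of 13945 protein-coding genes on the 6 chromosome arms, and all 6 symbols matched. A region of DNA was assigned to a gene when its summit lay in the gene or within 2000 bp of either end. By this rule 44 of the 30000 regions in the pooled list belong to the 6 genes, and 10 of these are among the 5756 regions that the authors kept as optimal.

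The data are chromatin immunoprecipitation sequencing of whole embryos aged 0 to 24 h, both sexes pooled, from a transgenic line with GFP fused to the C terminus of Hsf, precipitated through the GFP tag. All 3 samples are biological replicates of 1 group. The chromatin was sonicated to 200 to 800 bp. No heat treatment is named in the labels, a control experiment that they name was not analysed here, and no other group was, so there is no contrast between conditions and no test. Whether the embryos also carried untagged Hsf is not given in the sources used here, and cells of every embryonic tissue contribute to each value. Each region carries a signal, the score that the authors' peak calling gave it, and the scale of this score differs from list to list. Signals are therefore given within a list, replicate signals in the order of replicates 1, 2 and 3, with the rank that the region holds in that list (rank 1 is the strongest). "Optimal" means that the region is in the list kept after the authors' irreproducible discovery rate (IDR) procedure, which compares ranks between replicates. The lowest pooled signal of an optimal region was 96.99, and the highest of any other region was 96.98. The 5756 optimal regions were thus the 5756 strongest of the pooled list. Being optimal therefore gives a region's pooled strength and not its own agreement between replicates. Regions that "did not pass" are those outside the optimal list. Per their deposited descriptions the pooled and replicate lists hold peaks and background regions, so a candidate that did not pass may be background. The number of reads behind a region is unknown.

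Hsf is the transcription factor that activates heat shock genes, and it binds DNA through arrays of GAA units in alternating orientation. JNK signalling is a separate stress response: an upstream ligand or damage signal activates a chain of kinases, the last of which phosphorylates the AP-1 proteins Fos and Jun. In fly embryos the pathway is known for dorsal closure, the sealing of the epidermis over the back, and in other tissues for wound healing and stress-induced cell death.

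Of the 6 genes, 5 (hep, puc, kay, Jra and egr) had at least 1 optimal region, and bsk had candidates only. Among all protein-coding genes, 42.8% had an optimal region by the same rule and 79.8% had any pooled candidate. Long genes offer more room: the share with an optimal region was 36.9% for genes under 5 kb (bsk and Jra), 56.2% from 5 to 10 kb (egr), 61.1% from 10 to 20 kb (hep and puc) and 66.3% at 20 kb or more (kay). The 6 genes are too few to set their count apart from these shares. Of the 44 member regions 22.7% were optimal, against 19.2% of all pooled regions.

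Most of the 10 optimal regions lay away from the genes' own promoters. The same share over the optimal regions of all genes is not given here, so this cannot be called particular to the 6. An optimal region within 500 bp of one of the gene's own transcription start sites (TSSs) was present at puc and kay, 2 of 6 genes, against 25.9% of all protein-coding genes. A replicate was left out by keeping the optimal regions that were among the strongest 5756 of both other replicates. The optimal list itself was not remade. Under this stricter demand the count was 0 without replicate 2, 0 without replicate 3 and 1, kay, without replicate 1. It was also 0 among the strongest 5756 regions of all 3 replicates and at or above the median optimal signal, and 1, puc, with promoters of 200 bp. The shares of all protein-coding genes under these stricter settings are not given here. Counting the TSS of any gene, nested and neighbouring ones included, 6 of the 10 were within 500 bp of a TSS, against 52.5% of all optimal regions. Of the 10 optimal regions, 7 lay in introns of the 6 genes and 3 outside them, and none lay in their coding sequence or untranslated regions. In classes that put any TSS first, 3 of the 10 (30.0%) were intronic, against 32.4% of all optimal regions, and coding sequence held 0.139% of all optimal regions, so these positions are near those of the whole list. The 34 other regions comprised 15 in introns, 9 outside the genes, 6 in 5' untranslated regions and 4 in coding sequence. Per 10 kb of the genes with their flanks there were 1.10 optimal regions, against 0.508 per 10 kb of all protein-coding genes with the same flanks and 0.430 per 10 kb of the 6 arms. puc had 2.39 per 10 kb, and without puc the other 5 genes had 0.712. The mean number of optimal regions per gene was 0.501 for genes under 5 kb (bsk had 0 and Jra 1), 0.888 from 5 to 10 kb (egr had 1), 1.19 from 10 to 20 kb (hep had 1 and puc 5) and 2.00 at 20 kb or more (kay had 2). Of the 6 genes, puc alone was more than 1 region above the mean of its class. The comparisons with gene spans and without puc were added after the data had been seen.

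**Figure D1:**
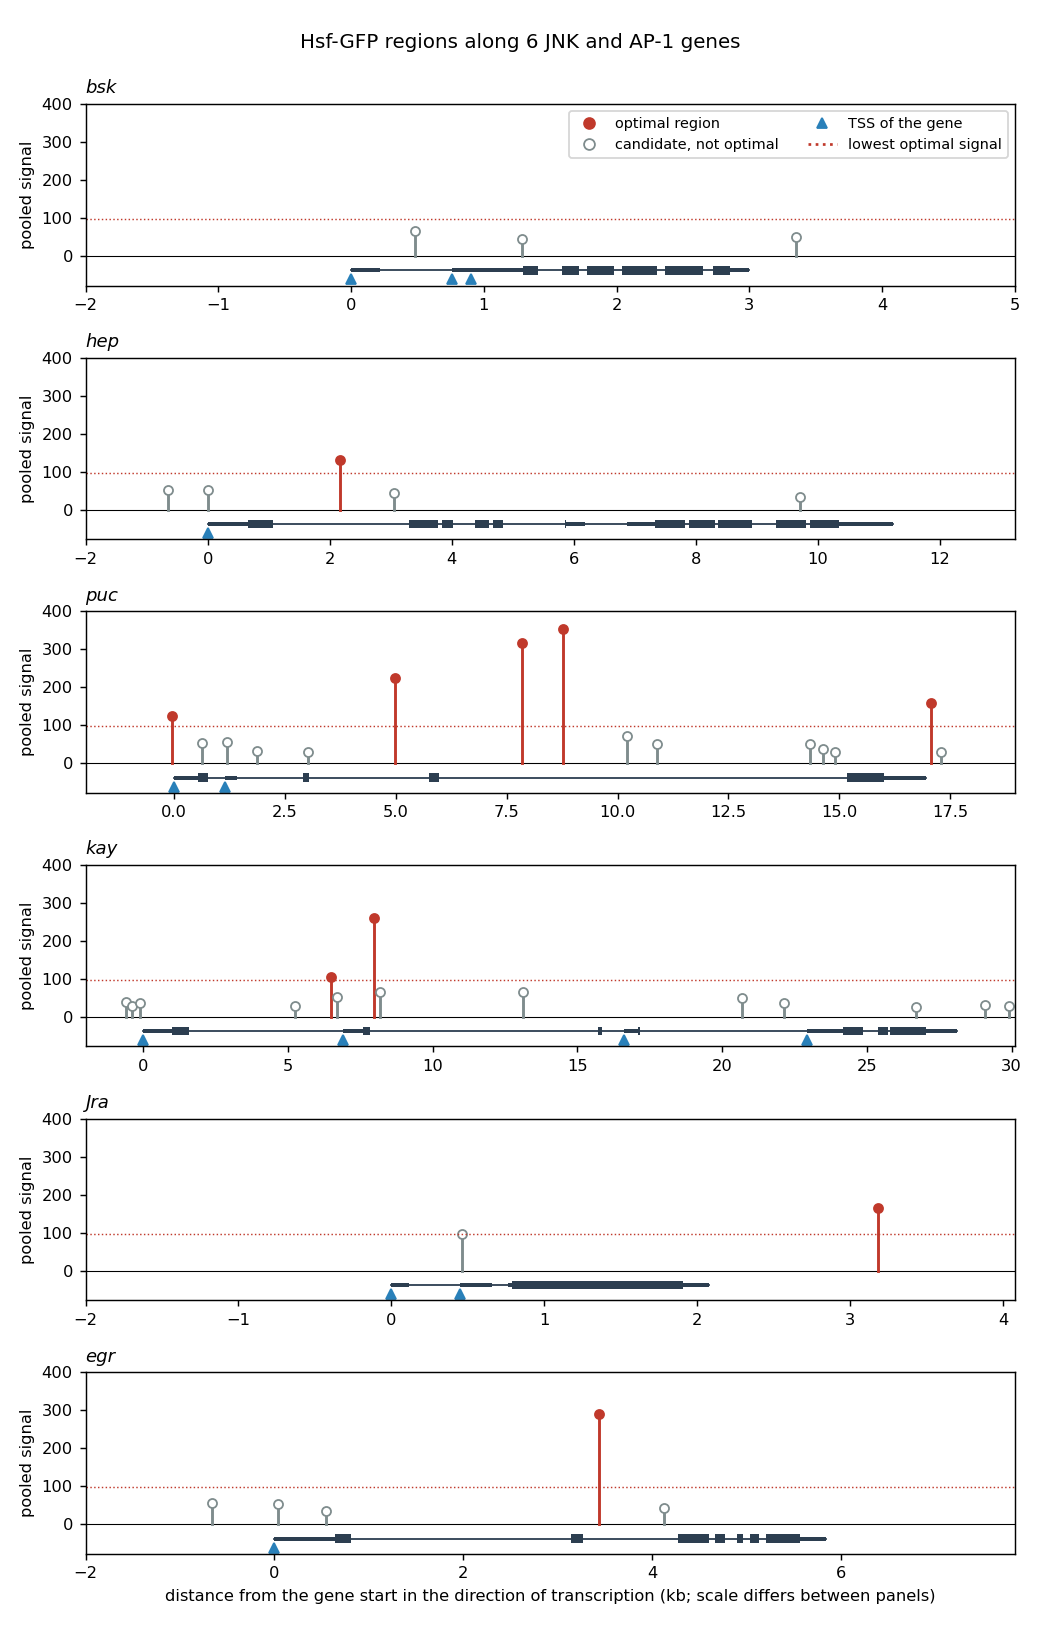
Pooled signal of every candidate region (vertical axis, the authors' score) against distance from the gene start in the direction of transcription (kb, horizontal axis), with exons as boxes (coding parts taller), TSSs as triangles and the lowest optimal signal of 97.0 as a dotted line. The tallest regions stand in introns of puc (354 and 316), egr (291) and kay (261), while bsk has no region above the line.

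The ligand gene comes first in the pathway. egr encodes Eiger, the tumour necrosis factor of the fly, and lies on the plus strand at chr2R:10078366-10084210 (FBgn0033483). Its 1 optimal region was narrow, 172 bp, and lay 3434 bp downstream of the TSS in an intron of 1009 bp (chr2R:10081749-10081920, signal 291, rank 1201). In the replicates this region had signals of 132, 95.9 and 66.9 and ranks of 918, 1328 and 1634. It was thus among the strongest in each list, and highest in replicate 1. The summit was 475 bp from the TSS of snoRNA:Or-ACA6, a small nucleolar RNA gene nested in egr on the other strand, so by the TSS rule it also counts as a promoter region of that gene. At the start of egr itself the candidates were weaker: 56.4 at 660 bp upstream, 53.6 at 38 bp and 33.8 at 551 bp downstream. A candidate of 43.6 lay in the same intron as the optimal region, 175 bp from the TSS of a further nested gene, snoRNA:Or-CD13. None of these was in the optimal list, and the candidate at the TSS (chr2R:10078196-10078611) had no counterpart in replicate 2.

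bsk encodes basket, the JNK itself, and lies on the minus strand at chr2L:10247502-10250501 (FBgn0000229), with 3 TSSs. Its 3 candidates had pooled signals of 64.8, 45.2 and 49.5, all under the lowest optimal signal of 97.0. The strongest lay in an intron of 538 bp, 277 bp upstream of the nearest TSS (chr2L:10249811-10250226, rank 9048), with signals of 27.4 and 12.9 in replicates 1 and 3. The next lay in the 5' untranslated region, 388 bp downstream of a TSS, and the last beyond the 3' end, 70 bp from the TSS of chico, the insulin receptor substrate gene. None of the 3 overlapped a region of replicate 2, whose list held no region at bsk. The signal at bsk was therefore weak in replicates 1 and 3 and not listed in replicate 2.

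hep encodes hemipterous, the kinase that phosphorylates basket, on the minus strand at chrX:13079205-13090434 (FBgn0010303). Its 1 optimal region lay 2166 bp downstream of the only TSS, in an intron of 2218 bp (chrX:13088060-13088475, signal 130, rank 4040). In the replicates its signals were 42.1, 37.6 and 43.8 and its ranks 5820, 4681 and 3118. Rank 5820 of replicate 1 falls just outside the strongest 5756, the size of the optimal list, so this is one of the weaker optimal regions. A second candidate in the same intron had a signal of 44.1. At the TSS (7 bp from it) the signal was 52.7, with signals of 31.6 and 33.9 in replicates 1 and 2 and no counterpart in replicate 3. Upstream, a candidate of signal 52.3 lay 656 bp from the TSS of hep and 55 bp from that of lic, the divergent neighbour, which encodes a kinase of the p38 pathway. A candidate of 33.3 in coding sequence was found in replicate 1 alone. The 101 bases centred on the optimal summit (chrX:13088218-13088318, plus strand, genome release 6) are shown because they carry the only optimal region of hep, with each GAA or TTC, the unit that Hsf reads on either strand, in capitals:

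hep intron: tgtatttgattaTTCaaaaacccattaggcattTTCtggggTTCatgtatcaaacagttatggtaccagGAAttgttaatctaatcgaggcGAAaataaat

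puc encodes puckered, the phosphatase that inactivates basket and is itself a widely used reporter of JNK activity. It lies on the plus strand at chr3R:8105332-8122294 (FBgn0243512) with TSSs at its start and 1156 bp downstream. It had 15 candidates and 5 optimal regions, the most of the 6 genes. Of all protein-coding genes 1.18% had 5 or more optimal regions, and of the 964 genes between 10 and 20 kb 2.49% did.

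The 3 strongest regions of puc were intronic. The strongest was 239 bp wide (chr3R:8113960-8114198, signal 354, rank 829), 7609 bp downstream of the nearest puc TSS in an intron of 9210 bp, with replicate signals of 157, 90.4 and 110 and ranks of 633, 1469 and 654. Its summit was 94 bp from the TSS of lncRNA:CR44331, a noncoding RNA gene inside that intron on the other strand. The next lay in an exon of the same noncoding gene (chr3R:8112961-8113376, signal 316, rank 1042), with replicate signals of 93.5, 132 and 93.1 and ranks of 1717, 760 and 890. The replicates disagree on their order: replicates 1 and 3 ranked the region at the start of lncRNA:CR44331 higher, and replicate 2 the region in its exon. The next in strength lay in the preceding intron of 2698 bp (chr3R:8110099-8110514, signal 224, rank 1841), with signals of 78.8, 92.7 and 54.5. All 3 were among the strongest 5756 regions of each replicate.

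At the upstream TSS of puc the optimal region (chr3R:8105071-8105486, summit 53 bp upstream, signal 124, rank 4264) was uneven between replicates. In replicate 1 its signal was 86.5 and its rank 1966, whereas replicates 2 and 3 gave 25.2 and 21.4, at ranks of 7218 and 8584. At the downstream TSS a candidate of 57.3 did not pass. The last optimal region lay just past the 3' end of puc (chr3R:8122188-8122603, signal 159, rank 3058), 329 bp from the TSS of the neighbouring gene CG7878, with replicate signals of 57.6, 65.4 and 42.0. The other 10 regions of puc had pooled signals between 29.5 and 73.0. A cluster of 3 overlapping candidates near the end of the long intron (49.8, 38.3 and 30.0) held the only heat shock element match in the 44 regions. Where candidates overlap each other, as here, past the 3' end of puc and in kay, they can share a counterpart in a replicate.

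Sequences of puc are shown as 101 bases each (plus strand, genome release 6). The lines cover chr3R:8105229-8105329 at the upstream TSS, chr3R:8110257-8110357, chr3R:8113119-8113219 and chr3R:8114047-8114147 in the introns, and chr3R:8122346-8122446 past the 3' end, each centred on an optimal summit, then chr3R:8120127-8120227 at the element match, which belongs to a candidate that did not pass (signal 30.0, rank 22984). Capitals mark GAA or TTC in the introns and past the 3' end, the M1BP site GGTCACACT at the TSS, and the element match in the last line:

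puc upstream TSS: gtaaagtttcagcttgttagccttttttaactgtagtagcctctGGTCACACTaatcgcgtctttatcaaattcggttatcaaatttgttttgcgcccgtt
puc intron, 3819 bp: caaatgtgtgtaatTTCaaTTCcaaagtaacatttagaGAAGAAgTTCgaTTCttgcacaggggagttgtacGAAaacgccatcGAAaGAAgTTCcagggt
puc intron, 6681 bp: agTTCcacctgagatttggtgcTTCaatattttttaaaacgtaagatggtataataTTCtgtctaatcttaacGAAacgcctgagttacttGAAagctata
puc intron, 7609 bp: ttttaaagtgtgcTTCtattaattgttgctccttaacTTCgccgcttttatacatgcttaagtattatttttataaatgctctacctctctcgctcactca
puc past the 3' end: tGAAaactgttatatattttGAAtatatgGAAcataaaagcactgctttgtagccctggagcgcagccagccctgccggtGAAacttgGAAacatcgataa
puc element match: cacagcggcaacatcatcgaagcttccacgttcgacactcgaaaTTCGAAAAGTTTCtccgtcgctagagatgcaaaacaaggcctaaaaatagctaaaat

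Within 100 bp of the summit, GAA and TTC numbered 4 at the strongest region of puc, 8 at the next and 15 at the region 3819 bp downstream, which was weaker than both. At the TSS there were 12 and past the 3' end 8. The median was 10 over the 10 optimal member regions and 8 over all optimal regions, a count added after the sequences had been seen. The site GGTCACACT, bound by M1BP, a factor of housekeeping promoters, lay 2 bp from the summit at the TSS. This site was present in 1 of the 44 member regions (2.27%), against 1.37% of all pooled and 2.17% of all optimal regions. This motif was added after the sequence had been seen.

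The AP-1 genes come last in the chain. kay encodes kayak, the fly Fos, on the plus strand at chr3R:29765995-29794113 (FBgn0001297), with 4 TSSs spread over the gene. Its strongest region lay 1081 bp downstream of the second TSS in an intron of 7869 bp (chr3R:29773765-29774180, signal 261, rank 1431). The replicates gave it signals of 98.0, 92.4 and 70.1 and ranks of 1589, 1406 and 1496, the closest agreement in rank among the 10 optimal regions. The other optimal region lay 419 bp upstream of the same TSS (chr3R:29772265-29772680, signal 104, rank 5273), and its ranks were 9636, 2785 and 4016. It was the weakest of the 10, and in replicate 1 it was well outside the strongest 5756. Upstream of the first TSS 3 overlapping candidates had signals of 38.8, 27.6 and 36.4, and none lay within 500 bp of the TSSs 16614 and 22941 bp downstream. Of the 14 kay regions 2, with signals of 27.4 and 25.0, overlapped no region of any replicate. The 2 optimal summits are shown as 101 bases on the plus strand, chr3R:29772423-29772523 and chr3R:29773923-29774023, with GAA and TTC in capitals, to compare the weakest and the most evenly ranked of the 10:

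kay, 419 bp upstream of a TSS: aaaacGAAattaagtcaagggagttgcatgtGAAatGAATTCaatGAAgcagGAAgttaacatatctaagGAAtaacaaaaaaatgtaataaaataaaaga
kay intron, 1081 bp downstream: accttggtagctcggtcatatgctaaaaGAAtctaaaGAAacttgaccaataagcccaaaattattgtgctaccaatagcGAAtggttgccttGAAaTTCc

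The window upstream of the TSS held 7 such units and that in the intron 5. Within 100 bp of the summit the counts were 9 and 11, so the order of these regions by units depends on the window.

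Jra encodes the Jun-related antigen, the partner of kayak in AP-1, on the plus strand at chr2R:10096480-10098556 (FBgn0001291), and is the shortest of the 6 genes. Its promoter candidate, 12 bp from the downstream of its 2 TSSs (chr2R:10096732-10097147), had a signal of 95.4 and rank 5850, just below the lowest optimal signal of 97.0. Its replicate signals were 37.9, 14.9 and 32.9 at ranks of 6691, 14635 and 4650, so replicate 2 placed it far lower than replicate 3. The optimal region assigned to Jra lay beyond its 3' end (chr2R:10099455-10099870, signal 165, rank 2914), 1107 bp past the gene and 14 bp from the TSS of 14-3-3zeta, a signalling adaptor gene. There the replicates gave 68.3, 51.5 and 54.2, at ranks of 2870, 3219 and 2285. Within 500 bp of the gene Jra had no optimal region. The promoter candidate of Jra, with 95.4, and the kay region upstream of the second TSS, with 104, are the member regions just outside and just inside the optimal list.

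**Figure D2:**
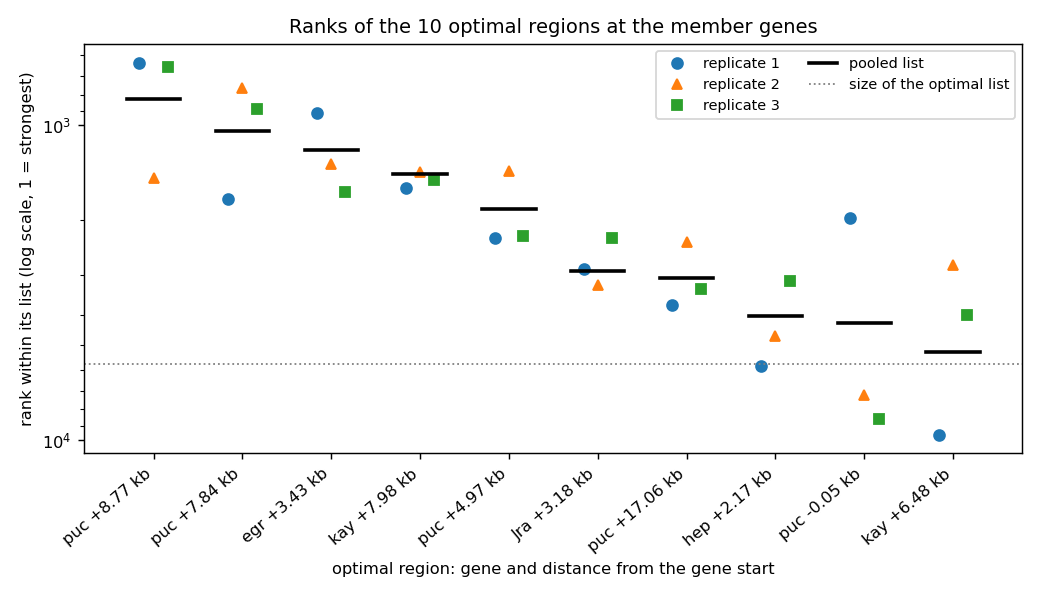
Rank of each of the 10 optimal regions (horizontal axis, gene and distance from the gene start) in replicates 1, 2 and 3 (symbols) and in the pooled list (bars), on a log axis with the strongest at the top. In 7 regions all 3 symbols lie above the dotted line at 5756, and hep, the upstream TSS of puc and the kay region at rank 5273 each have a symbol below it.

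Of the 10 optimal regions, 7 (70.0%) were among the strongest 5756 regions of all 3 replicates, against 67.9% of all optimal regions. Replicate 2 listed fewest: 28 of the 44 member regions had a counterpart there, against 38 in replicate 1 and 34 in replicate 3. The shares over all pooled regions were 66.4%, 74.9% and 72.3% for replicates 2, 1 and 3. Counted in each replicate's own list, the 6 genes had 52, 27 and 46 regions in replicates 1, 2 and 3, of 30000, 28225 and 30000. The gap between the replicates was thus wider at these genes than the lengths of the lists. Read depth was not available, and its part in this was not tested.

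By their strongest pooled region the genes ranked puc (354), egr (291), kay (261), Jra (165), hep (130) and bsk (64.8). Among all protein-coding genes 10.3% had a signal at least as high as that of puc, 14.2% for egr, 16.3% for kay, 27.6% for Jra, 34.5% for hep and 53.9% for bsk. The order was not the same in every replicate. In replicate 1 the strongest signals were 157 for puc, 132 for egr, 98.0 for kay, 68.3 for Jra, 42.1 for hep and 27.4 for bsk. In replicate 2 they were 132 for puc, 95.9 for egr, 92.4 for kay, 51.5 for Jra and 37.6 for hep, with nothing at bsk. In replicate 3 they were 110 for puc, 66.9 for egr, 70.1 for kay, 54.2 for Jra, 43.8 for hep and 21.8 for bsk. The order of egr and kay in replicate 3 was the reverse of that in the other replicates, whereas puc led and bsk was last in all 3. Within their classes of length, 17.0% of genes from 10 to 20 kb reached the signal of puc, 17.9% of genes from 5 to 10 kb that of egr and 28.9% of genes of 20 kb or more that of kay. The corresponding shares were 23.2% for Jra and 47.3% for bsk among genes under 5 kb, and 50.8% for hep among genes from 10 to 20 kb.

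**Figure D3:**
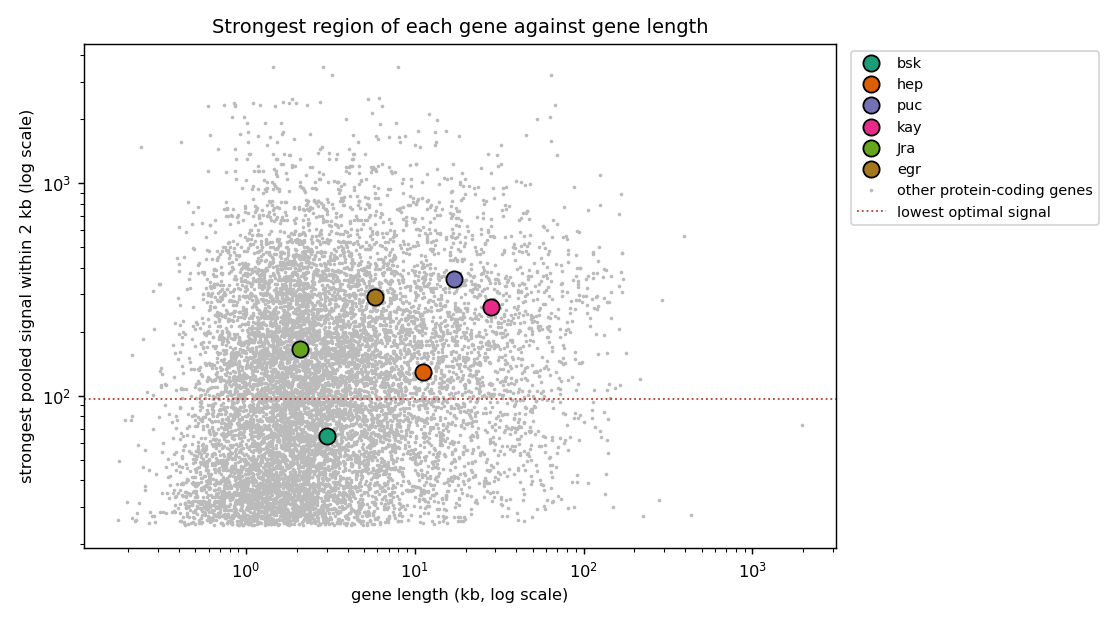
Strongest pooled signal within 2 kb of each gene (vertical axis, log scale) against gene length (kb, horizontal axis, log scale), for the 6 genes (large points) and the other protein-coding genes with a candidate (grey). The 6 genes lie inside the cloud of other genes of their length, and bsk alone is under the dotted line at 97.0.

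The motifs searched within 100 bp of each summit had shares both above and below those of all pooled regions. The counts are too small to set these genes apart. The heat shock element, written as GAA, then TTC, then GAA with 2 free bases between them and at most 1 mismatch in the 9 fixed bases, was found on either strand in 0 of the 10 optimal regions, against 6.18% of all optimal regions. Over all 44 regions it was found in 1 (2.27%), in the intron of puc, against 5.18% of all pooled regions. With 2 mismatches allowed, a count added after the first had been seen, 5 of the 10 optimal regions held a match, against 48.4% of all optimal regions, which shows how common so loose a match is. No match within 100 bp says only that these letters were absent from the window.

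The AP-1 site TGANTCA lay in 4 of the 44 regions (9.09%), against 4.25% of all pooled regions. These were 3 candidates of puc and the promoter candidate of Jra. None of the 10 optimal regions held it, against 4.81% of all optimal regions, a share at which none in 10 is unremarkable. The related CRE, TGACGTCA, was in none, against 0.310%. GAGAGAG lay in 2 regions (4.55%), both of puc, against 3.32%. The DREF site TATCGATA lay in 2 (4.55%), the promoter candidate of Jra and the region between hep and lic, against 2.41%. TATAAAA lay in 4 (9.09%), all of puc, against 11.2%. The mean GC content of the windows was 35.9% in the 10 optimal member regions (26.4% to 45.3%) and 35.9% in all optimal regions (17.9% to 65.7%). In the regions that did not pass it was 44.4% at the 6 genes and 42.7% over the pooled list.

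Other genes of the pathway give the setting. Of 19 genes that act upstream of JNK, 13 (68.4%) had an optimal region and 8 had one within 500 bp of an own TSS. Over all protein-coding genes these shares were 42.8% and 25.9%, and 56.2% of genes from 5 to 10 kb, the class of this list's median length, had an optimal region. The highest signals were at Mkk4, the other JNK kinase (chr3R:8650737-8651157, signal 1569, rank 27), POSH, a scaffold with ubiquitin ligase activity (826.5, rank 131), Mekk1, a kinase kinase kinase (510, in an intron), and ben, a ubiquitin-conjugating enzyme (363). The region of Mkk4 lies 173 bp from a TSS of Mkk4 and nearer still to that of SLIRP2. Cdc42, a regulator of cell polarity, and grnd, the Eiger receptor gene grindelwald, had candidates of 93.0 and 83.3 at most and no optimal region. The median of the strongest signals was 213 over the 6 genes, 189 over these 19 and 74.5 over all protein-coding genes, whose median length was 2.17 kb against 8.54 kb for the 6 and 6.31 kb for the 19. Genes without a candidate entered these medians as 0.

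Genes that are reported targets of JNK or AP-1 had an optimal region in 9 of 16 (56.3%) and within 500 bp of an own TSS in 3. Over all protein-coding genes these shares were 42.8% and 25.9%. Their median length was 9.02 kb, in the class where 56.2% of genes had an optimal region. The highest were hid, an activator of cell death (437, rank 542), dpp, the BMP ligand of dorsal closure (339.5, in an intron), Zasp52, a muscle Z-disc gene (252, outside the gene and 13609 bp from its TSS), and mys, the beta integrin gene (250). Ets21C and upd3, a transcription factor and a cytokine gene, had signals of 61.5 and 57.4 at most and no optimal region.

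Of 16 other bZIP factor genes, the family that includes Fos and Jun, 13 (81.3%) had an optimal region and 11 had one within 500 bp of an own TSS, against 42.8% and 25.9% of all protein-coding genes. Their median length was 9.34 kb, and 56.2% of genes from 5 to 10 kb had an optimal region. Atf3, which encodes a bZIP factor related to Fos, had the highest signal (chrX:1275308-1275721, 1227, rank 49, with ranks of 114, 34 and 35). It was followed by Irbp18 (758, 176 bp from its TSS but 50 bp from that of APP-BP1), slbo, a C/EBP gene (605, outside the gene, 4535 bp from its TSS and 163 bp from that of lncRNA:CR44810), and Pdp1, a clock factor gene (347.5, in an intron), while tj and gt had signals of 36.7 and 33.1 at most. kay and Jra, at 261 and 165, thus stood beside bZIP genes with signals both above and below theirs. Of 6 other MAP kinase pathway genes 5 had an optimal region, against 42.8% of all protein-coding genes. Their median length was 2.31 kb, and 36.9% of genes under 5 kb had an optimal region. p38a and p38c shared one of signal 216, 46 bp from the TSS of p38a. It was followed by p38b (191, outside the gene) and Dsor1, the MEK gene (130.5). rl, the ERK gene, had no candidate at all within 2000 bp. These lists have different lengths of gene, and no test was made between them.

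**Figure D4:**
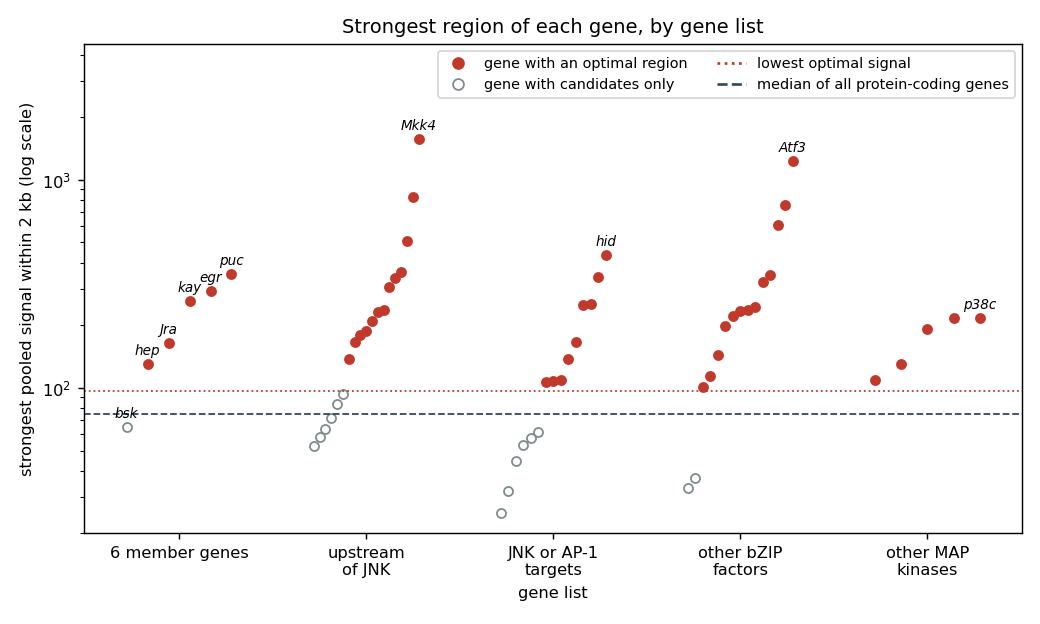
Strongest pooled signal within 2 kb of each gene (vertical axis, log scale) for the 6 genes and the 4 other lists (horizontal axis), filled where the gene has an optimal region, with the lowest optimal signal of 97.0 dotted and the median of all protein-coding genes, 74.5, dashed. Genes with no candidate (rpr, Atf6 and rl) are not drawn, and Mkk4 (1569) and Atf3 (1227) are the highest points drawn.

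For each of the 5 genes with an optimal region, the protein-coding gene most like it was the one whose strongest optimal region had the nearest ranks over the 3 replicates, by Euclidean distance on log10 ranks. These were cwo for puc (ranks of 602, 1424 and 612, distance 0.0386), Akt for kay (1549, 1434 and 1463, distance 0.0170, in a region shared with Mhcl) and AdamTS-B for egr (862, 1445 and 1640, distance 0.0458). For hep and Jra they were Cam (distance 0.0234) and CG14339 (0.0236, in a region shared with PolrMT). At least 5864 genes were compared for each, over 3 samples, so close matches arise easily and say nothing of function.

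The limit of 2000 bp bears on the counts. With 5000 bp the 6 genes had 14 optimal regions in place of 10, and with 500 bp they had 9 and Jra had none. The farthest assigned summit was 1800 bp from kay (signal 28.1) and 1107 bp from Jra (165), and 660 bp or less from the other 4 genes. The nearest summit left out was 2286 bp from Jra (157), 2651 bp from kay (133.5), 2698 bp from egr (72.9), 3874 bp from hep (109), 4130 bp from puc (135.5) and 8223 bp from bsk (33.1). Those near Jra, kay, hep and puc were optimal, and the one near hep, beyond lic, held a heat shock element match.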

How the data were processed

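Chromatin immunoprecipitation sequencing with Hsf-GFP was deposited as lists of regions in narrowPeak format. Per the deposited file descriptions, the dm6 lists of peaks and background regions for IDR were derived from alignments and from a further file whose kind they do not state, for each of 3 replicates and for the pooled replicates, and the optimal list from these. The value used is the signal of each region, which the authors deposited and which is comparable within a list only. Read depth is unknown. No name or version of an aligner or peak caller is given in the sources used here. The dm3 lists were not used here.

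Gene models came from Ensembl (annotation 6.54) and sequence from RefSeq, both of genome release 6, the assembly of dm6. Transposable elements and genes off the 6 arms were left out. A replicate counterpart was the strongest region that overlapped by 1 bp or more. Position classes, ranks and motif matches were computed with Python 3.11.15, pandas 2.3.3 and numpy 2.4.6, and the motif search and assignment were tested on simulated data. One of the listed symbols of other MAP kinases, Mpk2, matched no gene symbol. The genes and lists, the lists of other pathway genes included, were chosen with earlier results of these data known. The genes named are the 6, up to 4 genes with the highest optimal signal and up to 2 without an optimal region of each other list, and the most similar gene of each. Alternatives for the distance, the promoter, the optimal threshold, the overlap, the motif and the replicates were computed.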

Additional observations from a re-analysis of the deposited data

How the results depend on the processing

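With 500 bp or 5000 bp around the genes, the counts of regions, optimal regions and genes stayed within 1.5 times those reported, although with 500 bp Jra had no optimal region, and with 5000 bp 1 optimal region held a heat shock element. Requiring a signal at or above the median of optimal regions (167) left 5 of the 10 optimal regions (11.4% of the member regions). They were at 3 genes, puc, kay and egr, and 0 genes kept an optimal promoter region. By definition a cut at the median removes as many of all optimal regions as it keeps, so this loss is not particular to these genes. Shares of all genes under this cut are not given here. The count of 2 genes with an optimal promoter region also fell to 0 among the regions found in the strongest 5756 of all 3 replicates, at either overlap. It fell to 1, puc, with promoters of 200 bp. Leaving out a replicate meant asking for the strongest 5756 of both others, without remaking the optimal list. The count was then between 0 and 1. Among all 3 replicates, and without replicate 2 or 3, hep, the upstream TSS of puc and the kay region at rank 5273 were lost; without replicate 1 only that of puc was. The list of replicate 2 alone held 27 member regions. Overlapping regions merged to 37, an alternative chosen after seeing the data. No paired analysis was possible because there is 1 group. Unknown read depth limits every signal. A region without a replicate counterpart was not listed there, which does not show that it had no signal. The pooled list and those of replicates 1 and 3 each held 30000 regions.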
